A study of Homo sapiens with 9 samples.

Results

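The genes described here are 40 genes of the oxygen response and of glycolysis, taken by symbol from the 57733 genes of the deposited tables, and each symbol matched 1 gene. They were listed by known function, with earlier results of these data known, and the rule that picks them uses no measured value. They were followed in PANC-1, a cell line from a human pancreatic duct carcinoma, as 2 clones in which KDM6A was targeted, KO C22 and KO C28, and as a control line that had received no guide RNA (WT). Each knockout line is a single clone made with CRISPR/Cas9, and the design implies a comparison of each clone with WT. Nascent RNA was read by Bru-seq, in which cells took up 2 mM bromouridine for 0.5 h and the labelled RNA was captured with an antibody at once, without a chase (0 h). In BruUV-seq the cells also received 100 J/m2 of UV light, which stops polymerases along the gene so that reads gather towards its start. Each line has 2 libraries of Bru-seq and 1 of BruUV-seq, 9 libraries in all, and all lines were grown in the same medium.

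Cells sense oxygen through the stability of a transcription factor. While oxygen is plentiful, prolyl hydroxylases of the EGLN family mark the alpha subunits HIF1A and EPAS1, VHL binds the marked protein and it is destroyed. When oxygen falls the alpha subunits persist, join ARNT, bind a short DNA motif in promoters and enhancers and raise genes for glucose uptake, glycolysis, lactate export, blood vessel growth and mitochondrial turnover. The EGLN enzymes, KDM6A and the demethylase KDM3A all belong to the dioxygenases that use oxygen, iron and 2-oxoglutarate. Pancreatic ductal carcinomas are known for poor oxygen supply and heavy use of glycolysis.

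Estimated reads in genes were 5.64 to 31.1 M per library. Bru-seq KO C28 replicate 2 stood apart, with the 5.64 M reads, 46.5% of its reads outside genes against 9.93% to 20% elsewhere, and its gene levels correlated with those of each other library at 0.649 to 0.793. Fits without it are given beside the KO C28 values of many of the 40 genes. KDM6A, the gene aimed at, gave 287 and 427 CPM in Bru-seq of KO C22, 337 and 65.9 in KO C28, and 322 and 276 in WT. In BruUV-seq it gave 125, 201 and 204 CPM in KO C22, KO C28 and WT, so it was transcribed in every library, and reads over the gene body do not show a small CRISPR lesion or test the loss of the protein. Of 7 ductal and PANC-1 markers, VIM, KRT18, KRT19 and SOX9 were well above 1 scaled RPKM in every library, with KRT18, KRT19 and KRT8 highest in Bru-seq KO C28 replicate 2 at 167, 127 and 14.6. KRT8 was 0.726 at its lowest (Bru-seq KO C22 replicate 1) and 13.5 in BruUV-seq of KO C28, against 5.48 in WT, while KRT7 (0.0840 to 0.925) and EPCAM (0.0495 to 0.397) were low throughout. Of 13 markers of other cell types, 5 to 9 had no read in a given library. All but CD68 stayed at or below 0.214 scaled RPKM, a level reached by CDH5 in Bru-seq KO C28 replicate 2. CD68 gave 0.632 to 4.04, but it was counted over only 89 bases, with 1 to 8.77 reads per library. The labels do not say that replicate libraries were separate cultures, so a p-value here reflects no more than the spread among these libraries, which may be technical. In such bulk samples, fewer cells of a type and less RNA per cell cannot be told apart.

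Levels are given as scaled RPKM, which are CPM scaled between libraries by TMM and divided by the gene length in kb that the tables used, so that they can be compared between genes. By their median over the 9 libraries, 5 of the 40 genes stood at 10 or more, 17 at 1 to 10, 14 at 0.1 to 1 and 4 below 0.1. The highest were the glycolytic enzymes GAPDH (median 35.5, range 8.10 to 102), ENO1 (26.0, 21.8 to 85.5), PKM (21.2, 10.4 to 191) and LDHA (16.5, 6.35 to 48.0), followed by the vasodilator peptide gene ADM (13.8, 6.45 to 154). The ranges of these 5 genes overlapped one another, so their order is that of the medians alone. At the other end CA9, CA12, EGLN3 and SLC2A3 had medians of 0, 0.0117, 0.0126 and 0.0173. The top of the order was thus held by enzymes that act between triose phosphate and lactate, and 4 genes that many cells raise in low oxygen had few reads in all lines.

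**Figure D1:**
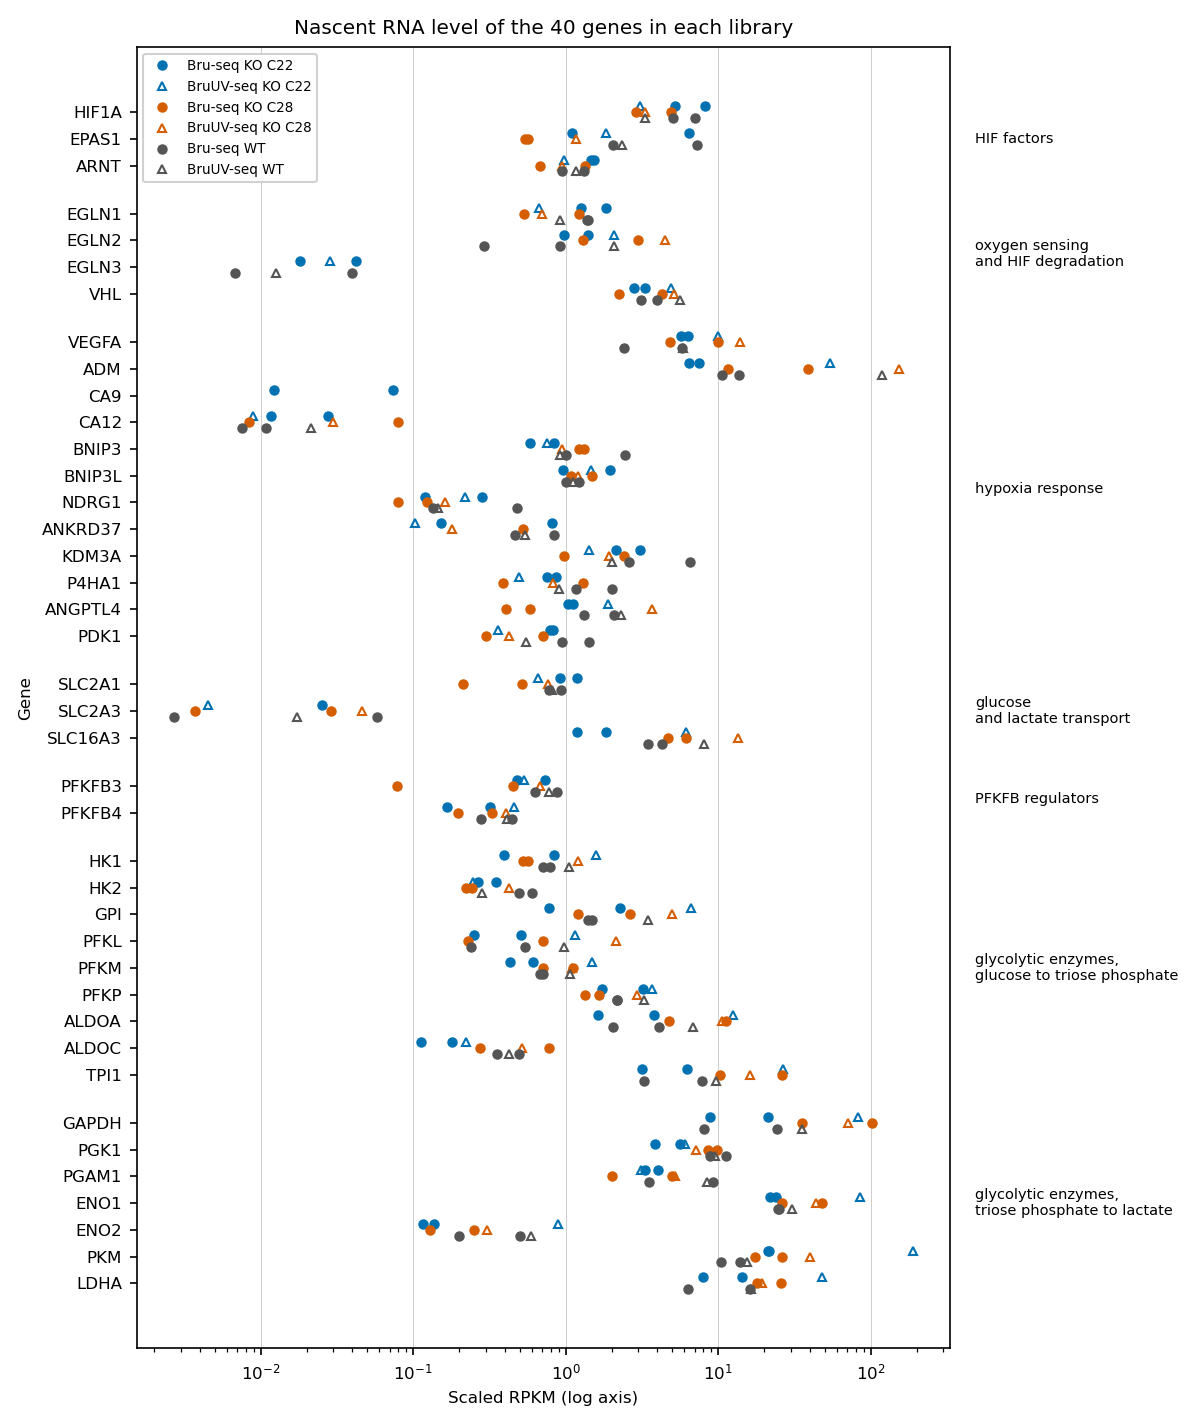
Level of each of the 40 genes (rows, grouped by role) in each library on a log axis of scaled RPKM, with KO C22 in blue, KO C28 in orange and WT in grey, filled circles for Bru-seq and open triangles for BruUV-seq. Values of 0 cannot be drawn on a log axis and are left out, so CA9 shows only 2 points, both of KO C22, and EGLN3 shows none of KO C28.

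In most sets of related genes compared here, PANC-1 transcribed the same gene most in nearly all libraries, with EGLN1 and EGLN2 as an exception. ALDOA exceeded ALDOC in 9 of 9 libraries (median ratio of scaled RPKM 16.1), and ENO1 exceeded ENO2 in 9 of 9 (median ratio 143). HK1 exceeded HK2, the hexokinase often raised in tumours, in 9 of 9 (median ratio 2.38). Among the phosphofructokinase genes PFKP was above PFKM in 9 of 9 libraries (median ratio 3.05) and above PFKL in 9 of 9 (4.06). HIF1A exceeded EPAS1 in 8 of 9 libraries with a median ratio of 2.47, the exception being Bru-seq WT replicate 2 at 0.960. The glucose transporter SLC2A1 was above SLC2A3, and EGLN1 above EGLN3, in all 9. EGLN2, counted over 13.3% of its bases, was above EGLN1 in some libraries and below it in others (medians 1.40 and 1.22).

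HIF binds the core letters ACGTG, less often GCGTG at the same position, on either strand. RefSeq (GRCh38.p14) gave windows of 250 bases before to 50 after the start for 35 of the 40 genes, 64 windows in all, and none for VHL, VEGFA, BNIP3L, NDRG1 and SLC2A3. ACGTG or its reverse complement CACGT stood in 25 of the 64 windows (39.1%), against 21.4% of all 35116 windows, and GCGTG or CACGC in 39.1%, against 36.5%. Taking for each gene the window nearest to its start in the tables, 16 of 35 held ACGTG. The start site of that window lay 11189 bases from the gene start for ALDOA, 2757 for EGLN1, 1658 for PGAM1 and 1337 for GAPDH. It was nearer for the other genes. Of these distant windows, those of ALDOA, EGLN1 and GAPDH are among the 16. Windows are shown for PGK1, P4HA1, PDK1 and SLC16A3, chosen from the 9 genes whose KO C22 libraries all lay below WT. That of ADM, also among the 9, is shown because ADM passed the test with UV light. The most ACGTG matches, 5, were in the window of LDHA, a gene above WT in every KO C28 library, which is not shown. Capitals mark ACGTG or CACGT, and each sequence runs 5′ to 3′ on the gene's strand.
PGK1, chrX:78103998-78104297 (+ strand): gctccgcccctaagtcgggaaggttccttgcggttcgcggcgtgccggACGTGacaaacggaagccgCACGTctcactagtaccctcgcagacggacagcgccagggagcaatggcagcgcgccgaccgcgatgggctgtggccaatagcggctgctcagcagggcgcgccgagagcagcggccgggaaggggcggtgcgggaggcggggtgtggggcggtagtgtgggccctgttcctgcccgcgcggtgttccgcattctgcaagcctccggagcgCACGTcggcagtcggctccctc
P4HA1, chr10:73096817-73097116 (- strand): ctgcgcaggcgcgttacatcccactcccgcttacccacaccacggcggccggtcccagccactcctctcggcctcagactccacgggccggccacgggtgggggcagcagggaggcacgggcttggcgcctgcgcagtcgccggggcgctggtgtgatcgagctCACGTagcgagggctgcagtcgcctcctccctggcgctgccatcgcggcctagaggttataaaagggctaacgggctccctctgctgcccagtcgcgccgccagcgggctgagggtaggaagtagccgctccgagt
PDK1, chr2:172555840-172556139 (+ strand): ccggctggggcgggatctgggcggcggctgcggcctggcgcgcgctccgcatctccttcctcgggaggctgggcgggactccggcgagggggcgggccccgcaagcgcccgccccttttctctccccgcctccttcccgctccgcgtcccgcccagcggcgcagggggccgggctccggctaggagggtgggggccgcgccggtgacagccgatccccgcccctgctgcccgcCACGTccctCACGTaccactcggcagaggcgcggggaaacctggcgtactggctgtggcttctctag
SLC16A3, chr17:82228185-82228484 (+ strand): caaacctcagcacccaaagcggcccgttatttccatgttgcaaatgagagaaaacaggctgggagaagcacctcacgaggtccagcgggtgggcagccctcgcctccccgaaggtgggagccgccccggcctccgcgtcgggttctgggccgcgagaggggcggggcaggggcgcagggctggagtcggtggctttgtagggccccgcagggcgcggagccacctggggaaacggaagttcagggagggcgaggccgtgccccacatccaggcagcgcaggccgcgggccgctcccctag
ADM, chr11:10304823-10305122 (+ strand): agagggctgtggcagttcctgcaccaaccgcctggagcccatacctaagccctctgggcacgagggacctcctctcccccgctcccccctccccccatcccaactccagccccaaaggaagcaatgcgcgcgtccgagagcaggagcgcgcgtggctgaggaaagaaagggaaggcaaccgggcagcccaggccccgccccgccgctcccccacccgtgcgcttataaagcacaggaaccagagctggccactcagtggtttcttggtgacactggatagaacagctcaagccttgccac

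The PGK1 window held 3 matches, PDK1 2 and P4HA1 1. The SLC16A3 window nearest to the start in the tables, 1 of 5 of that gene, held 0, as did that of ADM, which held 1 GCGTG. A match is a run of letters and not a binding site, and a window without one says nothing of sites elsewhere.

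The tests were made with edgeR on all genes. A fit of the 6 Bru-seq libraries held 22827 genes, a fit of all 9 libraries with a term for the assay held 20819, and 39 of the 40 genes were in both, CA9 having too few reads. At a Benjamini-Hochberg adjusted p below 0.05, 0 of the 39 passed in any comparison between lines. In Bru-seq the share of all genes that passed was 0.00438% for KO C22 against WT and 0.00438% for KO C28 against WT. With both assays it was 0.178% for KO C22 against WT, 0.125% for KO C28 against WT and 0% for KO C28 against KO C22. An unadjusted p below 0.05 was met in Bru-seq by 1 of the 39 in KO C22 (2.01% of all genes) and 4 in KO C28 (6.28% of all genes). With both assays it was met by 3 of the 39 in KO C22 (5.86% of all genes), 7 in KO C28 (10.5%) and 4 between the clones (5.71%). DESeq2 called 0 and 1 of the 39 in Bru-seq of KO C22 and KO C28, and 0, 1 and 2 in the 3 comparisons with both assays, while limma-voom called 0 in each. A p that misses the threshold does not show that a gene did not differ. No gene of the 40 is therefore called changed between lines below, and the size of a difference is given with its standard error (SE).

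Both clones were compared with the same WT libraries, so their values share those libraries. With both assays the median log2 fold change of the 39 genes was -0.09 in KO C22, against 0.02 over all genes tested, with 18 above and 21 below 0. In KO C28 it was -0.21, against -0.06 over all genes, with 17 above and 22 below 0. In Bru-seq alone the medians were -0.28 in KO C22 (all genes 0.07) and -0.53 in KO C28 (all genes -0.08). The KO C28 median in Bru-seq was 0.03 over the 32 of the 40 genes with a mean of at least 100 reads and -0.12 without Bru-seq WT replicate 1, and that of KO C22 was -0.59 without Bru-seq KO C22 replicate 2. With both assays the KO C22 median was -0.31 without its BruUV-seq library and -0.33 without its Bru-seq replicate 2, and the KO C28 median was -0.52 without the BruUV-seq library of WT. By role, genes of the hypoxia response lay mostly below WT in both clones, and GAPDH, ENO1, PKM, LDHA, ALDOA and TPI1 above WT in KO C28.

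**Figure D2:**
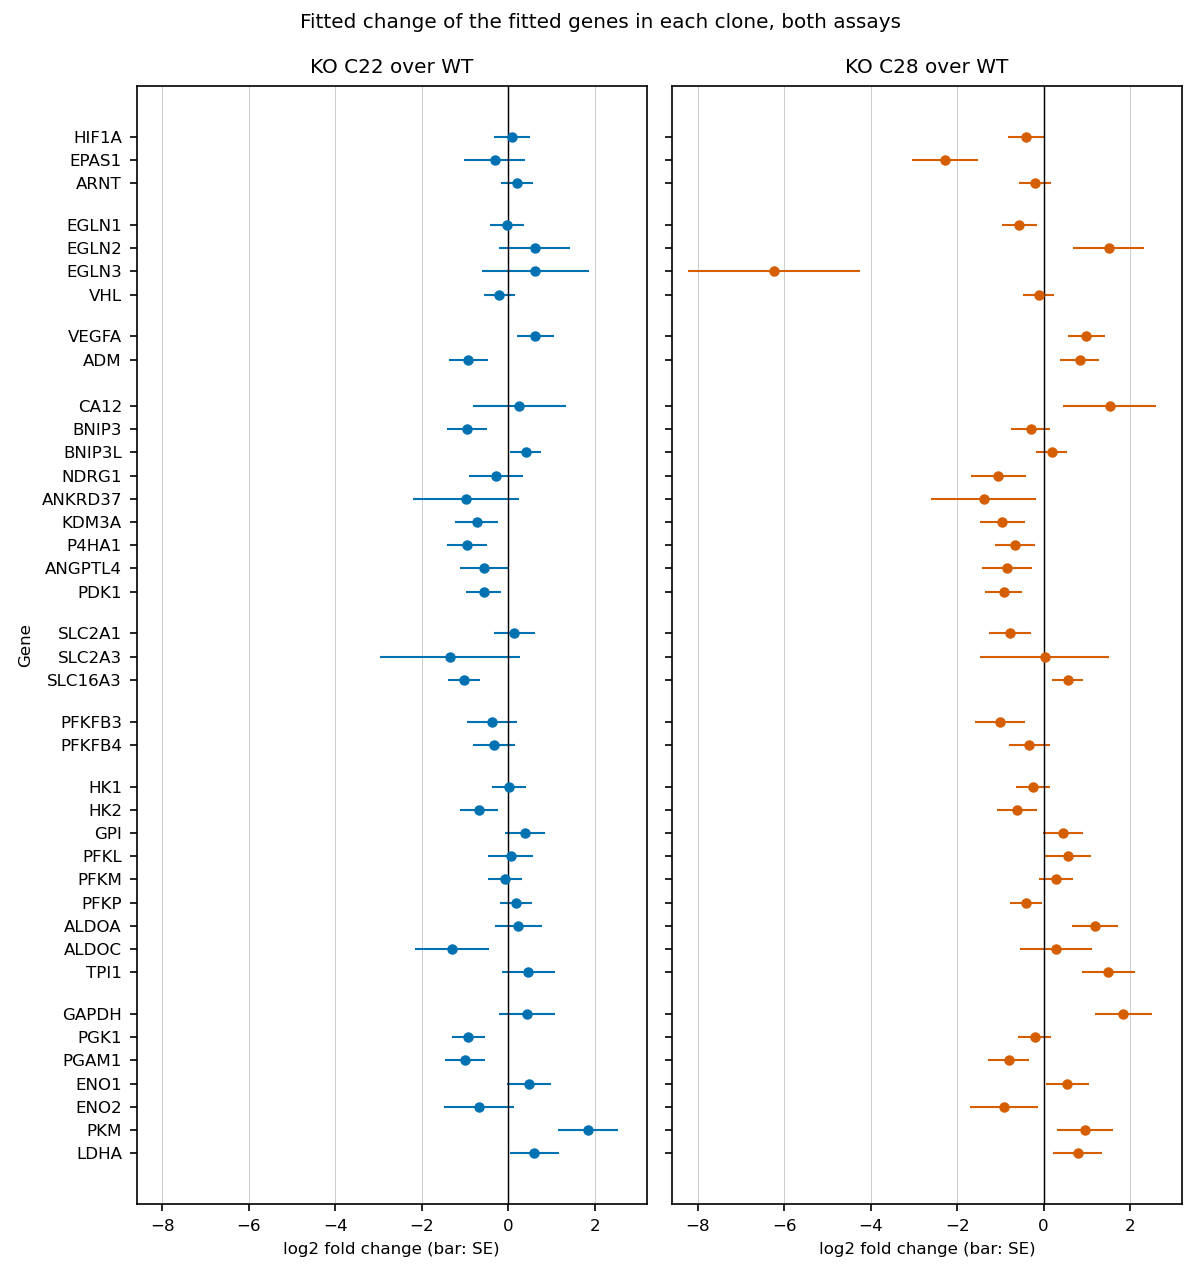
Fitted log2 fold change over WT of 39 genes in KO C22 (left) and KO C28 (right) with both assays in the fit, where points are estimates, bars are SE and n = 3 libraries per line. In KO C22 the estimates ran from -1.35 (SLC2A3) to 1.85 (PKM), and in KO C28 from -6.24 (EGLN3, with no read in KO C28, a value that is no bound) to 1.84 (GAPDH). None passed an adjusted p of 0.05.

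Of the HIF factors, EPAS1 (chromosome 2, 46297402 to 46386703, plus strand) differed most from WT, in KO C28. EPAS1 encodes the alpha subunit best known from endothelial and kidney tumour cells. It gave 0.565 and 0.543 scaled RPKM in Bru-seq of KO C28, against 2.05 and 7.32 in WT, and 1.18 in BruUV-seq of KO C28, against 2.33 in WT. In KO C22 it gave 1.10 and 6.44 in Bru-seq and 1.84 in BruUV-seq. All KO C28 libraries lay below the WT libraries of the same assay, whereas replicate 2 was several-fold above replicate 1 in both KO C22 and WT, and the WT and KO C22 ranges overlapped. The log2 fold change with both assays was -2.28 (SE 0.77, adjusted p = 0.457, edgeR, n = 3 libraries per line) in KO C28 and -0.32 (SE 0.71, adjusted p = 0.998) in KO C22. Without Bru-seq KO C28 replicate 2 it was -1.94 in KO C28. DESeq2 called EPAS1 in KO C28, in Bru-seq and with both assays, and over all alternatives with both assays the adjusted p ran from 0.000864 to 0.923.

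HIF1A, the more widely used alpha subunit, gave 4.89 and 2.90 scaled RPKM in Bru-seq of KO C28, 5.23 and 8.25 in KO C22, and 5.06 and 7.03 in WT. In BruUV-seq it was nearly level at 3.32 in KO C28, 3.10 in KO C22 and 3.33 in WT. On the log2 scale it differed from WT by -0.41 (SE 0.41) for KO C28 and 0.08 (SE 0.41) for KO C22, and without Bru-seq KO C28 replicate 2 by -0.15 for KO C28. ARNT, the partner of both, ranged from 0.681 to 1.53 over all libraries and lay within 0.21 of 0 on the log2 scale in both clones. HIF protein is governed mainly by its breakdown, which reads of nascent RNA do not measure.

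Among the oxygen sensors, EGLN3 had no read in KO C28. EGLN3 (chromosome 14, 33924231 to 33951081, minus strand) encodes the prolyl hydroxylase most often reported as a target of HIF. It had 0 reads in each of the 3 KO C28 libraries. In KO C22 it had 21 and 11 (Bru-seq) and 10 (BruUV-seq), and in WT 4 and 26 (Bru-seq) and 8 (BruUV-seq). A count of 0 was taken to allow at most 3 reads over the KO C28 libraries. With the other counts taken as exact, KO C28 would be at least 7.52-fold lower than WT and at least 10.8-fold lower than KO C22. Without Bru-seq WT replicate 2, which held 26 of the 38 WT reads, the first bound was 3.65-fold. Such bounds cover the counting error of KO C28 alone, not that of WT or KO C22 or the spread between libraries. Reads without molecular identifiers can also be PCR copies. The edgeR test with both assays gave adjusted p = 0.457 for KO C28 against WT and 0.614 for KO C28 against KO C22.

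EGLN1, the main oxygen sensor of most cells, gave 1.22 and 0.530 scaled RPKM in Bru-seq of KO C28, 1.26 and 1.84 in KO C22, and 1.37 and 1.39 in WT. That is a log2 difference from WT of -0.56 (SE 0.40) for KO C28 and -0.03 (SE 0.40) for KO C22, and of -0.25 for KO C28 without Bru-seq KO C28 replicate 2. EGLN2 was above WT in all KO C28 libraries, with 1.29 and 2.96 in Bru-seq and 4.45 in BruUV-seq of KO C28, against 0.291 and 0.923 in Bru-seq and 2.09 in BruUV-seq of WT. The log2 difference was 1.50 (SE 0.82, adjusted p = 0.539, edgeR, n = 3 per line), but the tables count only 13.3% of its 9247 bases, and each library held 7.82 to 97.4 reads. VHL ranged from 2.23 to 5.61, and differed from WT by -0.12 (SE 0.35) for KO C28 and -0.21 (SE 0.35) for KO C22 on the log2 scale, the first being 0.10 without Bru-seq KO C28 replicate 2.

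The hypoxia response genes leaned below WT in both clones. Of the 12, 11 were fitted, and with both assays 8 were below WT in KO C22 (median log2 fold change -0.57) and 7 in KO C28 (median -0.66, or -0.34 without Bru-seq KO C28 replicate 2). By these estimates 7 lay below WT in both: BNIP3, NDRG1, ANKRD37, KDM3A, P4HA1, ANGPTL4 and PDK1. Of these, PDK1 alone was below WT in every library of both clones. In BruUV-seq NDRG1 stood at 0.218 scaled RPKM in KO C22 and 0.162 in KO C28, against 0.147 in WT. Over the alternatives the sign changed for NDRG1 in KO C22 (-0.75 to 0.61) and for BNIP3 in KO C28 (-0.58 to 0.18). The medians over all genes tested were 0.02 and -0.06. The scaling between libraries holds those near 0, so a set of 11 genes lying further away is no test. Of the 11, 0 passed.

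PDK1 (chromosome 2, 172555969 to 172608669, plus strand) encodes a kinase that inhibits pyruvate dehydrogenase in the mitochondria. It was below WT in every library of both clones. It gave 0.830 and 0.787 scaled RPKM in Bru-seq of KO C22, 0.711 and 0.301 in KO C28, and 1.43 and 0.952 in WT. The BruUV-seq values were 0.361 in KO C22, 0.424 in KO C28 and 0.550 in WT. On the log2 scale the fold change was -0.57 (SE 0.41, adjusted p = 0.989, edgeR, n = 3 per line) in KO C22 and -0.93 (SE 0.42, adjusted p = 0.478) in KO C28, where it was -0.57 without Bru-seq KO C28 replicate 2.

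P4HA1 (chromosome 10, 73007217 to 73096974, minus strand) encodes an enzyme that hydroxylates collagen. It gave 0.861 and 0.755 scaled RPKM in Bru-seq of KO C22, against 2.02 and 1.18 in WT, and 0.492 in BruUV-seq of KO C22, against 0.909 in WT. In KO C28 the values were 1.29 and 0.391 in Bru-seq and 0.820 in BruUV-seq. KO C22 lay wholly below WT, and KO C28 overlapped it (log2 fold changes -0.96, SE 0.46, and -0.66, SE 0.46, the second -0.25 without Bru-seq KO C28 replicate 2). KDM3A, a histone demethylase raised by HIF, gave 2.40 and 0.974 in Bru-seq of KO C28, against 2.61 and 6.54 in WT, and 1.93 in BruUV-seq of KO C28, against 2.01 in WT. BNIP3, a receptor for the removal of mitochondria, differed by -0.96 (SE 0.47) for KO C22 and -0.30 (SE 0.46) for KO C28, though reads of its 38 named pseudogenes came to as much as 63.6% of its own, so its count is uncertain. ANGPTL4, an inhibitor of lipoprotein lipase, gave 0.405 and 0.582 in Bru-seq of KO C28, against 1.31 and 2.06 in WT, yet 3.68 in BruUV-seq of KO C28, against 2.29 in WT.

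In the fit with both assays VEGFA lay above WT in both clones, and ADM below WT in KO C22 and above it in KO C28. In Bru-seq the VEGFA values of both clones overlapped those of WT, as did the ADM values of KO C28. VEGFA, the growth factor of new blood vessels, gave 10.0 and 4.86 scaled RPKM in Bru-seq of KO C28, 6.35 and 5.74 in KO C22, and 2.41 and 5.78 in WT. BruUV-seq gave 13.9 in KO C28, 9.90 in KO C22 and 5.86 in WT. The log2 fold change came to 0.99 (SE 0.43, adjusted p = 0.478, edgeR, n = 3 per line) for KO C28 and 0.62 (SE 0.43, adjusted p = 0.987) in KO C22. ADM (chromosome 11, 10304680 to 10307397, plus strand) gave 7.50 and 6.45 in Bru-seq of KO C22, 11.6 and 39.0 in KO C28, and 13.8 and 10.5 in WT. In BruUV-seq it gave 53.9 in KO C22, 154 in KO C28 and 119 in WT, so KO C22 was the lowest line in each assay. KO C28 against KO C22 gave a log2 fold change of 1.75 (SE 0.46, adjusted p = 0.500, edgeR), and 1.08 without Bru-seq KO C28 replicate 2. For ADM in KO C28 against WT it was 0.83 (SE 0.45, adjusted p = 0.540, edgeR), and 0.17 to 1.33 over the alternatives. The acid regulators CA9 and CA12 were near silent: CA9 had 10 and 2 reads in Bru-seq of KO C22 and none in the other 7 libraries, and CA12 had 7 to 39 reads per library.

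The lactate exporter SLC16A3 lay on opposite sides of WT in the 2 clones. SLC16A3 (chromosome 17, 82228406 to 82240086, plus strand) encodes the carrier by which glycolytic cells release lactate. It gave 1.83 and 1.19 scaled RPKM in Bru-seq of KO C22, 4.67 and 6.11 in KO C28, and 4.26 and 3.46 in WT. The BruUV-seq values were 6.17 in KO C22, 13.4 in KO C28 and 8.09 in WT. Within each assay, KO C22 was below WT and KO C28 above WT with no overlap. On the log2 scale the fold change with both assays was -1.02 (SE 0.37, adjusted p = 0.628, edgeR, n = 3 per line) in KO C22 and 0.55 (SE 0.36, adjusted p = 0.598) in KO C28. KO C28 against KO C22 gave 1.58 (SE 0.37, unadjusted p = 0.0013, adjusted p = 0.351), and 1.44 without Bru-seq KO C28 replicate 2. SLC16A3 overlaps CSNK1D on the other strand, and the labels' protocols describe stranded reads for only some samples. Whether the counting kept strands apart was not given in the sources used here. Of the glucose importers, SLC2A1 gave 0.518 and 0.212 in Bru-seq of KO C28, against 0.781 and 0.939 in WT, a log2 difference of -0.78 (SE 0.48) for KO C28, or -0.36 without Bru-seq KO C28 replicate 2, while for KO C22 it was 0.14 (SE 0.47). SLC2A3 had 0 to 24 reads per library.

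PFKFB3 and PFKFB4 make and remove the sugar phosphate that activates phosphofructokinase. In the fit with both assays, both were estimated below WT in both clones. The log2 differences of PFKFB3 and PFKFB4 were -0.37 (SE 0.57) and -0.33 (SE 0.48) for KO C22. For KO C28 they were -1.01 (SE 0.59) and -0.33 (SE 0.48). In Bru-seq the PFKFB3 values of KO C22 and the PFKFB4 values of both clones overlapped WT. In BruUV-seq PFKFB4 stood at 0.461 scaled RPKM in KO C22, against 0.413 in WT. Its KO C28 difference ran from -0.58 to 0.02 over the alternatives. PFKFB3 was lowest in 1 library, at 0.0782 scaled RPKM in Bru-seq KO C28 replicate 2, against 0.450 in replicate 1 of the same clone and 0.630 and 0.875 in WT, and without that library its KO C28 difference was -0.46 and that of PFKFB4 -0.55.

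Of the 9 genes for the steps down to triose phosphate, 6 lay above WT in each clone with both assays (median log2 fold change 0.05 in KO C22 and 0.29 in KO C28). In KO C22, HK1 counts among them at 0.01, and without the BruUV-seq library of that clone GPI, PFKL and PFKP were above WT and the other genes below, ALDOA at -0.33 and TPI1 at -0.42. In KO C28, 4 of the 9 lay above WT without Bru-seq KO C28 replicate 2 (median -0.03). The aldolase ALDOA gave 4.75 and 11.3 scaled RPKM in Bru-seq of KO C28, 3.79 and 1.63 in KO C22, and 4.12 and 2.03 in WT, with a log2 fold change of 1.19 (SE 0.54) in KO C28, or 0.56 without Bru-seq KO C28 replicate 2. TPI1, which interconverts the triose phosphates, gave 10.3 and 26.1 in KO C28, 6.28 and 3.18 in KO C22, and 7.85 and 3.27 in WT, with a log2 fold change of 1.50 (SE 0.61, adjusted p = 0.470, edgeR, n = 3 per line) in KO C28. The value for TPI1 was 0.73 without Bru-seq KO C28 replicate 2. HK2 lay below WT in both clones (log2 differences -0.68, SE 0.44, for KO C22 and -0.62, SE 0.46, for KO C28, or -0.37 without Bru-seq KO C28 replicate 2), though in BruUV-seq it stood at 0.424 in KO C28, against 0.285 in WT, and HK1 was nearly level (0.01 and -0.25, SE 0.39 each). GPI, PFKL, PFKM and PFKP lay within 0.56 of 0 in either clone. The brain aldolase gene ALDOC gave -1.30 (SE 0.85) for KO C22 and 0.29 (SE 0.83) for KO C28 (-0.24 without Bru-seq KO C28 replicate 2) from 8.65 to 50 reads per library.

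From triose phosphate to lactate the genes divided within KO C22. By the estimates with both assays, PGK1, PGAM1 and ENO2 were below WT, and GAPDH, ENO1, PKM and LDHA above WT. Without the BruUV-seq library of KO C22, GAPDH, ENO1 and LDHA were below WT too (log2 fold changes -0.31, -0.15 and -0.16), and PKM alone was above. The estimate of ENO2 was -0.67 (SE 0.81), from 19 to 131 reads per library. In BruUV-seq ENO2 stood above WT, at 0.897 scaled RPKM in KO C22, against 0.589 in WT. PGK1 (chromosome X, 78104174 to 78129296, plus strand) encodes the first enzyme of glycolysis that makes ATP, and its promoter window held 3 ACGTG matches. It gave 5.63 and 3.83 scaled RPKM in Bru-seq of KO C22, 8.58 and 9.81 in KO C28, and 11.2 and 8.88 in WT. BruUV-seq gave 6.10 in KO C22, 7.20 in KO C28 and 9.55 in WT, so KO C22 lay wholly below WT. The log2 fold change was -0.93 (SE 0.38, unadjusted p = 0.031, adjusted p = 0.747, edgeR, n = 3 per line) in KO C22 and -0.21 (SE 0.37, adjusted p = 0.854) in KO C28, or -0.33 without Bru-seq KO C28 replicate 2. PGAM1 gave 4.04 and 3.30 in Bru-seq of KO C22, 4.98 and 2.02 in KO C28, and 9.30 and 3.53 in WT, but reads of 13 named pseudogenes amounted to 5.88% to 89.9% of its own, so its count is uncertain.

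PKM (chromosome 15, 72199029 to 72231822, minus strand), which encodes pyruvate kinase, was above WT in every library of both clones. It gave 21.4 and 21.2 scaled RPKM in Bru-seq of KO C22, 17.4 and 26.3 in KO C28, and 13.8 and 10.4 in WT. In BruUV-seq it gave 191 in KO C22, 39.9 in KO C28 and 15.3 in WT. The BruUV-seq library of KO C22 alone held 81161 reads of PKM. On the log2 scale the fold change was 1.85 (SE 0.69, unadjusted p = 0.021, adjusted p = 0.666, edgeR, n = 3 per line) in KO C22, and 0.88 without that library. In KO C28 it was 0.95 (SE 0.64, adjusted p = 0.604), and 0.60 without Bru-seq KO C28 replicate 2.

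GAPDH (chromosome 12, 6533927 to 6538374, plus strand) was above WT in every library of KO C28. It gave 35.7 and 102 scaled RPKM in Bru-seq of KO C28, 21.2 and 8.84 in KO C22, and 24.1 and 8.10 in WT. The BruUV-seq values were 70.9 in KO C28, 82.4 in KO C22 and 35.5 in WT. The log2 fold change was 1.84 (SE 0.66, adjusted p = 0.457, edgeR, n = 3 per line) in KO C28 and 0.44 (SE 0.65, adjusted p = 0.998) in KO C22. It was 1.01 in KO C28 without Bru-seq KO C28 replicate 2, and -0.31 in KO C22 without the BruUV-seq library of KO C22. Reads of its 62 named pseudogenes came to 0.21% to 4.62% of its own. LDHA, which turns pyruvate into lactate, gave 17.9 and 26.0 in Bru-seq of KO C28, 14.3 and 7.94 in KO C22, and 16.2 and 6.35 in WT, with 19.4, 48.0 and 16.5 in BruUV-seq of KO C28, KO C22 and WT. ENO1 gave 26.0 and 47.6 in Bru-seq of KO C28, 21.8 and 24.0 in KO C22, and 24.7 and 25.2 in WT, and its log2 fold change in KO C28 was 0.55 (SE 0.50), or 0.12 without Bru-seq KO C28 replicate 2.

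Ribosomal protein genes, whose messenger RNA is abundant and stable, are set beside these enzymes as a sign of mature RNA in a library. The 52 ribosomal protein genes summed to 995 and 515 scaled RPKM in Bru-seq of KO C22, 1332 and 3277 in KO C28, and 1410 and 818 in WT. The 7 genes from GAPDH to LDHA summed to 88.5 and 69.3 in the same KO C22 libraries, 111 and 214 in KO C28, and 99.5 and 63.0 in WT. In BruUV-seq the ribosomal sums were 1718 in KO C22, 1407 in KO C28 and 1672 in WT, and the glycolytic sums 417, 187 and 117. As a share of the ribosomal sum the glycolytic sum was 8.89% and 13.4% in Bru-seq of KO C22, 8.31% and 6.53% in KO C28 and 7.06% and 7.70% in WT, and 24.3%, 13.3% and 6.97% in BruUV-seq of KO C22, KO C28 and WT. The share of KO C22 lay above WT in both assays, but in Bru-seq its glycolytic sums overlapped those of WT, as did its ribosomal sums, and in BruUV-seq PKM alone gave 191 of the 417. The share of KO C28 overlapped WT in Bru-seq, and Bru-seq KO C28 replicate 2 had the highest Bru-seq sums of both sets. With both assays 44 of the 52 ribosomal protein genes were above WT in KO C28 (median log2 fold change 0.52) and 9 in KO C22 (median -0.43). By summed level, Bru-seq KO C28 replicate 2 alone of the KO C28 libraries exceeded WT. Bru-seq KO C28 replicate 1 lay between the WT libraries (1332, against 1410 and 818), and BruUV-seq of KO C28 below WT (1407, against 1672). Of the 7 ductal and PANC-1 markers, 5 were above WT in KO C28 (median 1.70, or 0.49 without Bru-seq KO C28 replicate 2). The part of mature RNA or of these markers in the values of GAPDH, TPI1, ALDOA and ENO1 was not tested.

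**Figure D3:**
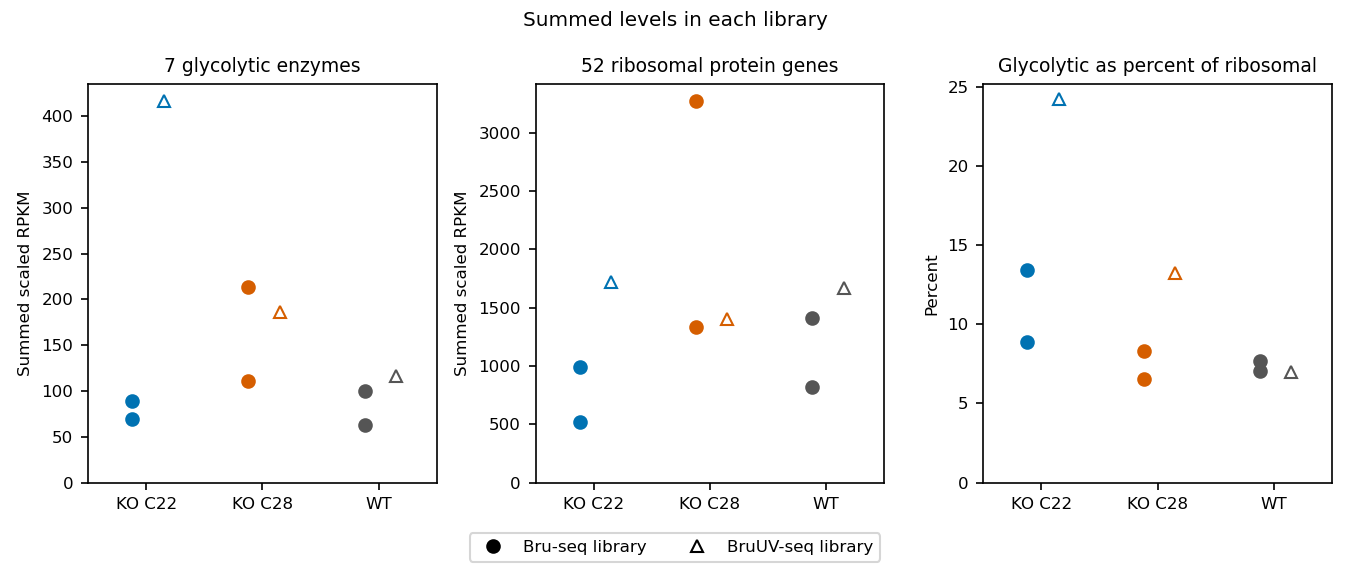
Summed scaled RPKM in each library of the 7 enzymes from GAPDH to LDHA (left) and of 52 ribosomal protein genes (middle), and the first sum as a percent of the second (right), with KO C22, KO C28 and WT from left to right, filled circles for Bru-seq and open triangles for BruUV-seq. Bru-seq KO C28 replicate 2 stood highest among Bru-seq libraries in both sums, and BruUV-seq KO C22 had the highest percent at 24.3.

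A count of genes whose libraries did not overlap summarises these values. Below the WT libraries of the same assay in every library were 9 of the 39 genes in KO C22 (23.1%, against 12.2% of all genes): ADM, BNIP3, P4HA1, ANGPTL4, PDK1, SLC16A3, HK2, ALDOC and PGK1. Above WT in KO C22 was PKM alone (2.56%, against 10.2% of all genes). In KO C28, 9 of the 39 were below WT throughout (23.1%, against 14% of all genes): HIF1A, EPAS1, EGLN1, EGLN3, KDM3A, PDK1, SLC2A1, PFKFB3 and PFKP. Above WT in KO C28 were 8 (20.5%, against 12.9%): EGLN2, SLC16A3, ALDOA, TPI1, GAPDH, ENO1, PKM and LDHA. Without Bru-seq KO C28 replicate 2, 12 were below WT (30.8%, against 19.1% of all genes) and 9 above (23.1%, against 20.2%), the 8 genes above WT remaining and VEGFA joining them. PDK1 was below WT throughout in both clones and PKM above in both. Whether these shares differ from the background was not tested, because the genes were chosen with earlier results of these data known.

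**Figure D4:**
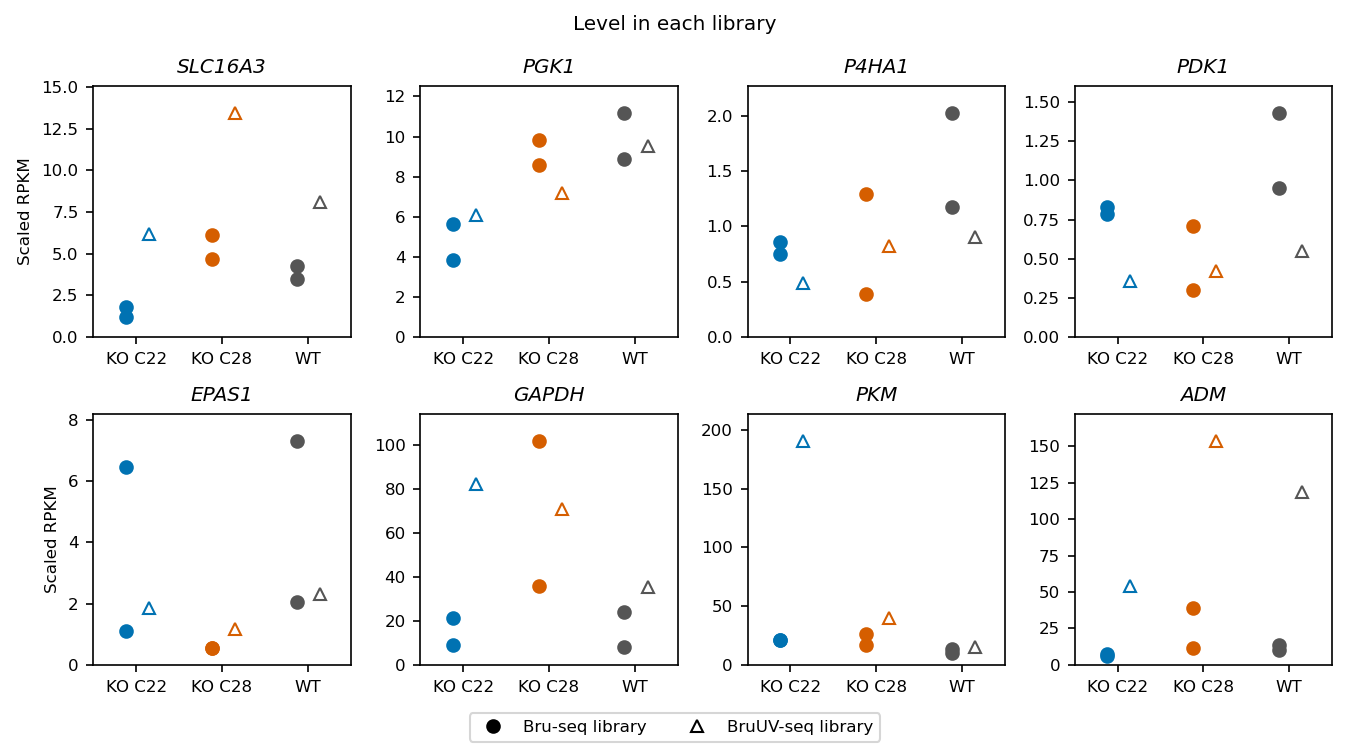
Scaled RPKM of 8 genes in each library of KO C22, KO C28 and WT (left to right), with filled circles for Bru-seq and open triangles for BruUV-seq. In KO C22, SLC16A3, PGK1, P4HA1 and PDK1 lay below WT within each assay, EPAS1 was lowest in KO C28, and the BruUV-seq library of KO C22 reached 191 for PKM.

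The BruUV-seq libraries, 1 per line, allow ratios without a test, taken over genes with a mean of at least 100 reads in the pair compared. At least 2-fold above WT in KO C22 were 5 of 33 genes (11.1% of the 11789 genes ranked): PKM, LDHA, ENO1, TPI1 and GAPDH. PKM was 12.4-fold higher (95% binomial counting interval 12.2 to 12.7) and ranked at place 28 of all genes from the top, and the other 4 were 2.32- to 2.92-fold higher. At least 2-fold below WT in KO C22 were ADM, at a ratio of 0.455, and PGAM1, at 0.369, where 8.2% of all genes were. In KO C28 3 of 32 genes were at least 2-fold above WT (7.34% of the 12125 genes ranked), PKM at 2.60, VEGFA at 2.38 and PFKL at 2.19, and 0 of 32 were at least 2-fold below (4.07% of all genes). Intervals cover counting error alone, and spread between cultures is not seen with 1 library each.

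Across the lines, BruUV-seq was set against Bru-seq with line in the fit. ADM rose with UV light and was the only one of the 39 genes to pass, where 0.447% of all genes passed (log2 fold change 2.96, SE 0.38, adjusted p = 0.0353, edgeR, 3 libraries against 6). ADM is a short gene (2.72 kb), with 53.9, 154 and 119 scaled RPKM in BruUV-seq of KO C22, KO C28 and WT, each above every Bru-seq library (6.45 to 39.0). The call was lost with RLE size factors, with a mean of at least 100 reads, with the correction for gene length (log2 fold change 2.21), and without replicate 1 of Bru-seq of any line or without any BruUV-seq library, and the adjusted p ran from 1.05e-10 to 0.432 over the alternatives. An unadjusted p below 0.05 was met by 15 of the 39, where 25% of all genes met it. The UV light stops polymerases before the end of long genes, and gene length is set beside the values. Spearman's correlation of the log2 fold change with length was -0.42 across the 39 genes and -0.472 across all 20819, a description over genes that share the same libraries. Of the 17 genes up to 20 kb long, 14 were higher in BruUV-seq (82.4%, median 0.92), against 69.1% of all such genes (median 0.57). Of the 22 longer genes, 9 were higher (40.9%, median -0.03), against 33.2% (median -0.42).

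Among the longer genes the highest were genes of glycolysis, but not all of these were high. PGK1 (25.1 kb) and HK2 (59.4 kb) had log2 fold changes of -0.01 (SE 0.33) and -0.08 (SE 0.39). PFKL, GPI, PKM and HK1, of 27.3, 37.1, 32.8 and 132 kb, had log2 fold changes of 1.72 (SE 0.44), 1.60 (SE 0.39), 1.60 (SE 0.58) and 1.02 (SE 0.33). HIF1A, PDK1, EGLN1 and KDM3A, of 41.2, 52.7, 61.3 and 51.9 kb, had -0.72 (SE 0.37), -0.83 (SE 0.37), -0.69 (SE 0.36) and -0.59 (SE 0.45). By role, 8 of the 9 genes down to triose phosphate were higher in BruUV-seq (median 1.02), 6 of the 7 from there to lactate (median 0.92), 0 of the 3 HIF factors (median -0.23) and 3 of the 11 hypoxia response genes (median -0.05), against a median of -0.03 over all genes. No gene of these but ADM passed, and without the BruUV-seq library of KO C22 the value of PKM was 0.66.

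**Figure D5:**
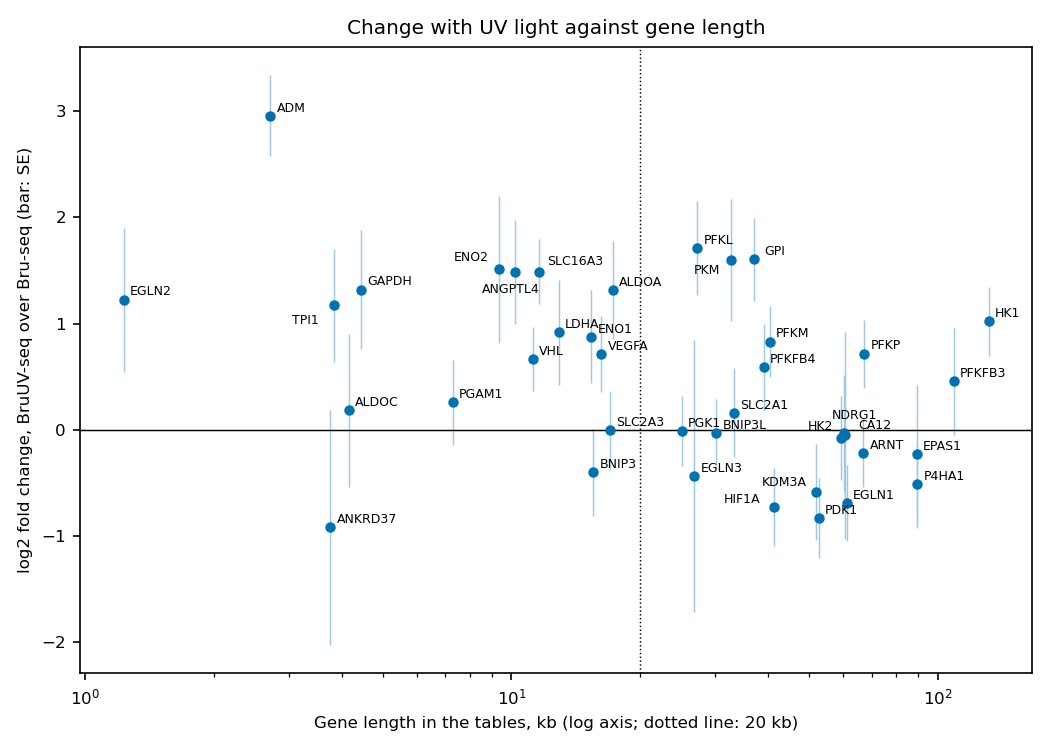
Fitted log2 fold change of BruUV-seq over Bru-seq (bars are SE, 3 libraries against 6) against gene length on a log axis for 39 genes. Of the 17 genes up to 20 kb (left of the dotted line) 14 lay above 0, and of the 22 longer genes 9 did, with ADM highest at 2.96.

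Other genes of the same pathways put these values in context. Of 53 further genes of the hypoxia response and HIF pathway, 50 were fitted with both assays, 18 above and 32 below WT in KO C22 (median log2 fold change -0.25) and 21 above and 29 below in KO C28 (median -0.28). None passed in KO C22 and 1, PLOD2, passed in KO C28. PLOD2, an enzyme that modifies collagen before it is crosslinked, gave 0.671 and 0.698 scaled RPKM in Bru-seq of KO C28, 1.11 and 2.41 in KO C22, and 4.25 and 5.89 in WT. BruUV-seq gave 0.331 in KO C28, 0.671 in KO C22 and 3.26 in WT, so both clones lay below WT in every library. It fell in KO C28 by 3.04 on the log2 scale (value -3.04, SE 0.44, adjusted p = 0.0282, edgeR, n = 3 per line), and in KO C22 it gave -1.78 (SE 0.43, adjusted p = 0.199). The call in KO C28 held in 7 of 7 other tools and settings and was lost in 6 of 9 fits with 1 library left out, those without either Bru-seq WT library, Bru-seq KO C28 replicate 1 or any BruUV-seq library (log2 fold changes -3.28 to -2.86, adjusted p 0.0136 to 0.301 over the 9).

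AK4, a mitochondrial adenylate kinase, and TGFA, a ligand of the EGF receptor, followed PLOD2 by p in both clones without passing. AK4 gave 0.0257 and 0.0514 scaled RPKM in Bru-seq of KO C28, 0.0581 and 0.110 in KO C22, and 0.640 and 0.243 in WT, with log2 fold changes of -3.03 (SE 0.62, adjusted p = 0.111, edgeR, n = 3 per line) and -2.47 (SE 0.60, adjusted p = 0.203). TGFA had -2.70 (SE 0.53, adjusted p = 0.0958) in KO C28 and -1.98 (SE 0.50, adjusted p = 0.238) in KO C22. Between the clones the smallest p values were those of VLDLR, a lipoprotein receptor (KO C28 against KO C22 -3.44, SE 0.86), of DDIT4, an inhibitor of mTOR signalling (1.79, SE 0.46), and of PLOD2 (-1.26, SE 0.42). DDIT4 gave 11.3 and 21.0 scaled RPKM in Bru-seq of KO C28, 6.54 and 2.158 in KO C22, and 9.82 and 12.9 in WT, with KO C22 lowest and KO C28 overlapping WT.

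Of 58 further genes of glycolysis and pyruvate use, 50 were fitted with both assays and 0 passed in any comparison at an adjusted p below 0.05. In KO C22 26 lay above and 24 below WT (median log2 fold change 0.06), and in KO C28 26 above and 24 below (median 0.05). An unadjusted p below 0.05 was met by 2 of the 50 in KO C22 (5.86% of all genes), 8 in KO C28 (10.5% of all genes) and 1 between the clones (5.71% of all genes). TKT, the transketolase of the pentose phosphate pathway, was above WT in every library of both clones: it gave 2.25 and 2.01 scaled RPKM in Bru-seq of KO C22, 2.26 and 2.77 in KO C28, and 1.11 and 1.01 in WT, and 5.68, 4.54 and 2.04 in BruUV-seq of KO C22, KO C28 and WT. On the log2 scale the fold change came to 1.17 (SE 0.33, adjusted p = 0.372, edgeR, n = 3 per line) in KO C22 and 1.21 (SE 0.33, adjusted p = 0.321) in KO C28. TIGAR, a phosphatase that turns glucose away from glycolysis, was below WT in every library of both clones (log2 differences -0.70, SE 0.34, for KO C22 and -1.02, SE 0.34, for KO C28). BSG, which carries lactate transporters to the membrane, gave 1.52 (SE 0.47) in KO C28, and SLC2A10, a glucose transporter, -1.71 (SE 0.75) in KO C22. Between the clones the smallest p values in this list were those of G6PC3 (1.32, SE 0.53), GBE1 (-1.08, SE 0.50) and SLC16A7 (2.31, SE 1.11).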

How the data were processed

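Bru-seq and BruUV-seq of 3 PANC-1 lines were compared. Per the submitters' processing notes, CASAVA 1.8.2, Bowtie2 2.3.3, STAR 2.5.3a and bedtools 2.16.2 were used and the builds hg38 and GRCh38 are named, with no role given. The annotation release was not given in the sources used here. The authors deposited, for each gene, an expected count (often not whole) beside its RPKM. The RPKM served only to find the library totals. Coordinates and lengths are those of the tables.

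Counts were rounded and tested with edgeR 4.0.16 in R 4.3.3 (filterByExpr, TMM, quasi-likelihood F tests, Benjamini-Hochberg over all genes, threshold 0.05), 1 coefficient per line, with a term for the assay where all 9 libraries were fitted. The common biological coefficient of variation was 79.3% with 6 libraries and 63.4% with 9. Alternatives were DESeq2 1.42.0, limma-voom in limma 3.58.1, RLE size factors, no filter, a mean of at least 100 reads, a gene length offset, a replicate block, and each library left out. The 40 genes and the lists of other genes were chosen with earlier results of these data known. Any of the 40 could be named, and of the other lists those that passed and the 3 with the smallest p in each comparison between lines with both assays. BruUV-seq ratios between lines used a prior count of 2 for their ranks. Each fit was also run on simulated counts in which 200 genes had been changed.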

Additional observations from a re-analysis of the deposited data

Results flagged for a closer look

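SLC16A3, the lactate exporter, was below WT in every library of KO C22 and above WT in every library of KO C28, within each assay. With both assays the log2 fold change of KO C28 over KO C22 was 1.58 (SE 0.37, unadjusted p = 0.0013, adjusted p = 0.351, edgeR, n = 3 libraries per line), so the difference between the clones did not pass. It ranged from 1.32 to 1.91 over the 16 alternatives, with adjusted p of 0.00828 to 1, and DESeq2 and the fit without a filter called it. Outliers were not sought within groups, since each line has 2 Bru-seq libraries and 1 BruUV-seq library.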

How the results depend on the processing

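Counts of genes that passed depended on the setting. Bru-seq KO C22 against WT called 1 gene, and 2 with RLE size factors, 43 without a filter, 91 with DESeq2, 0 with limma-voom, 0 with the replicate block and 0 to 22 with 1 library left out. Bru-seq KO C28 against WT called 1 gene, and 190 without a filter, 0 with a mean of at least 100 reads, 205 with DESeq2, 0 with limma-voom, 0 with the replicate block and 0 to 179 with 1 library left out. With both assays KO C22 called 37, and 272 without a filter, 56 with a mean of at least 100 reads, 348 with DESeq2, 46 with the replicate block and 3 to 142 with 1 library left out. KO C28 called 26, and 1100 without a filter, 47 with a mean of at least 100 reads, 711 with DESeq2, 49 with the replicate block and 1 to 67 with 1 library left out. KO C28 against KO C22 called 0, and 230 without a filter, 228 with DESeq2, 2 with the gene length offset and 0 to 18 with 1 library left out. BruUV-seq against Bru-seq called 93, and 1 with RLE size factors, 2326 without a filter, 0 with a mean of at least 100 reads, 3941 with DESeq2, 640 with limma-voom, 0 with the gene length offset, 903 with the replicate block and 0 to 3305 with 1 library left out, the highest without Bru-seq KO C28 replicate 2.

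Of the 40 genes, DESeq2 called 1 (EPAS1) in Bru-seq of KO C28, 1 (EPAS1) with both assays in KO C28 and 2 (ADM and SLC16A3) between the clones. Without a filter 3 passed in KO C28 (EPAS1, TPI1 and GAPDH) and 3 between the clones (EPAS1, ADM and SLC16A3). No setting called any of the 40 in KO C22, in Bru-seq or with both assays. With UV light 1 passed, against 0 with RLE size factors, 7 without a filter, 0 with a mean of at least 100 reads, 7 with DESeq2, 3 with limma-voom, 0 with the gene length offset, 3 with the replicate block and 0 to 11 with 1 library left out. The causes were not tested. With both assays 23 of the 39 fitted genes kept their sign under all 16 alternatives in KO C22, 31 in KO C28, 24 between the clones and 26 with UV light. In Bru-seq alone 22 in KO C22 and 27 in KO C28 kept it under all 13.

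Replicate numbers were not taken to pair libraries: deviations of Bru-seq libraries with the same number correlated at 0.459 between WT and KO C22, 0.037 between WT and KO C28 and -0.382 between KO C22 and KO C28. The replicate block moved the counts as given above. It used the replicate number alone, and every BruUV-seq library is numbered 1. With the block, BruUV-seq was thus in effect compared with replicate 1 of Bru-seq alone. Depth limits the genes with few reads, CA9, CA12, EGLN2, EGLN3, SLC2A3, ALDOC, ENO2 and ANKRD37. Every statement about BruUV-seq between lines rests on 1 library each.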
